A study of Homo sapiens with 8 samples.

Results

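This report describes 42 genes of the synaptic vesicle and exocytosis machinery on 8 arrays from 4 human neuroblastoma cell lines. In these lines the Polycomb protein BMI1 was knocked down. The genes were chosen by name, with earlier results of these data known. Of the 42 genes, 41 had at least 1 probe set annotated to them alone (101 probe sets in all, among 19776 genes measured), and RIMS3 had none. Where a gene had several probe sets, the brightest on average stood for it. Of the 41, 24 lay above the median brightness of all genes and were tested among 9888 genes, and 17 lay under it and are described without a test. The lines were SH-SY5Y, SK-N-DZ, NB-39-nu and SK-N-BE, all established lines from neuroblastoma, a childhood tumour of the sympathetic nervous system. Each line gave 1 array of cells infected with the lentiviral control vector pLKO.1 (shCont) and 1 of cells infected with the short hairpin vector shBMI1-1, so all cells had been infected with lentivirus. Cells were lysed for RNA 8 to 14 days into infection, and which day applies to which sample was not stated in the labels. A single hairpin was used, and the 4 lines are the only replicates. No label says that the samples of a line came from separate cultures or days, so p-values measure the spread between these lines alone.

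Neurons and neuroendocrine cells release transmitters and peptides by fusing vesicles with the plasma membrane. The SNARE proteins of the vesicle and the target membrane zip together to drive fusion, synaptotagmins trigger it when calcium enters, and complexins, UNC13 and CADPS proteins hold or prime the vesicle beforehand. RAB3 and RAB27 GTPases and the large active zone scaffolds bring vesicles to the release site, synapsins keep a reserve of them, and NSF with its SNAP adaptors takes used SNARE complexes apart. Neuroblastoma cells descend from sympathoadrenal precursors and carry dense-core vesicles that store catecholamines and peptides, so much of this machinery belongs to their lineage.

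BMI1 itself was lower with the hairpin in every line. BMI1 signal after knockdown was 24.6% of control in NB-39-nu and 39.4% in SK-N-DZ, but 65.0% in SK-N-BE and 65.5% in SH-SY5Y, read by a probe set that also matches a read-through transcript from COMMD3. The sympathoadrenal markers PHOX2A, GATA3 and DDC were bright on all 8 arrays, and 8 of the 9 measured markers of that lineage exceeded the table's median signal of 75 on every array. TH, the first enzyme of catecholamine synthesis, was the exception, at 4.69 in the NB-39-nu control and 2.80 in that of SK-N-BE. Of other cell types, the glial markers SOX10 and GFAP stayed at or under 42.2 and 101, whereas S100B reached 266 in SK-N-BE. The leukocyte marker PTPRC read 218 and 252 in SH-SY5Y, with CD14 at most 45.0 on any array. Summed signals of the 4 measured leukocyte genes ran from 83.3 to 266 in controls and from 109.8 to 349 after knockdown, those of the 4 glial genes from 78.4 to 344 and from 98.8 to 384, and those of the 5 epithelial genes from 317 to 1081 and from 296 to 1083. The endothelial and hepatocyte sums were at most 310.2 and 104. Fewer cells expressing a gene and less RNA per cell cannot be told apart in these bulk samples.

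None of the 24 tested vesicle genes passed the test over all genes (limma adjusted p of 0.369 at the lowest), where 1 of 9888 genes (0.0101%) did. At an unadjusted p under 0.05, 5 of the 24 (20.8%) were higher after knockdown, against 4.98% of all tested genes, and 0 were lower, against 4.36%, or 9.33% in either direction. The 5 were PCLO, CPLX1, NAPB, SYN2 and SYT1, which serve the active zone, the fusion clamp, SNARE recycling, the vesicle reserve and calcium sensing. In the mean over lines 18 of the 24 were higher and 6 lower, with a median log2 fold change of 0.086, beside 56.5% higher and a median of 0.032 over all tested genes. The list was chosen with earlier results of these data known. Shares set against all genes, here and below, therefore describe the list and do not test it. All fold changes are differences of log2(signal + 8), knockdown minus control, a scale that understates the change of dim genes. With the mean of all probe sets of each gene in place of the brightest one, NAPB, SYT1, PCLO and SYN2 no longer had an unadjusted p under 0.05. CPLX1 kept one, but it has a single probe set, so averaging could not change its value. SYPL1 was lower at that level. With lines left out, 1 was higher at that level without SK-N-BE (SYN2), 3 without SK-N-DZ (NAPB, PCLO and SYN2) and 7 without SH-SY5Y, which added RAB3C and SYT11. Without NB-39-nu 4 were higher (CPLX1, NAPB, SYN2 and RAB27B) and RAB3B was lower. The median fold change was 0.26 without SH-SY5Y, against 0.029 over all tested genes. For the counts with a line left out no share over all genes is given, so they are not read as an excess.

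The lines did not move alike. The median log2 ratio of the 24 tested genes was -0.090 in SH-SY5Y, but 0.16 in SK-N-DZ, 0.14 in SK-N-BE and 0.20 in NB-39-nu. Over all tested genes it was 0.017, 0.034, 0.018 and 0.028 in the same lines. Of the 24, 6 were higher after knockdown in SH-SY5Y (25%, against 52.4% of all tested genes), 16 in SK-N-DZ (66.7%, against 55.1%), 18 in SK-N-BE (75%, against 52.8%) and 17 in NB-39-nu (70.8%, against 52.8%). Genes at least 2-fold higher numbered 7 in NB-39-nu (29.2%, against 4.74% of all tested genes), 3 in SK-N-BE (12.5%, against 1.02%), 1 in SK-N-DZ (4.17%, against 1.1%) and 0 in SH-SY5Y, where the share over all genes was 0.769%. Among the 7, SYT4, CPLX1 and RAB3C read only 4.90, 15.1 and 4.27 in the NB-39-nu control and lay above the filter through other lines. Of the 9888 genes under the filter, 2187 were 2-fold higher in NB-39-nu, so 4.74% is not a like share for them. With the table median as pseudocount, which weighs dim signals less, the 7 in NB-39-nu became 4 and the 1 in SK-N-DZ became 0. The shares over all genes at that pseudocount are not given. Genes at least 2-fold lower were RAB27B in NB-39-nu and CADPS and RAB3B in SH-SY5Y, against 1.94% and 0.87% of all tested genes. With a single pair of arrays per line, these per-line values have no replicate. Only STX1A and SYN2 were higher in all 4 lines (8.33%, against 10.6% of all tested genes) and 0 were lower in all 4 (against 7.65%). A pattern picked after the values were seen, higher in the other lines but lower in SH-SY5Y, held for 7 of the 24 (29.2%), namely SNAP25, NAPB, SYT1, CPLX1, RAB3C, PCLO and ERC1, and for 9.44% of all tested genes. The difference between SH-SY5Y and the other lines was not tested, since each line has 1 array pair. A median under 0 in SH-SY5Y was not particular to these genes. Among the further lists described below it was -0.15 for the exocyst and -0.15 for RAB3, RAB27 and active zone partners. It was -0.13 for further synaptotagmins and tethers, -0.099 for SNARE partners, -0.032 for vesicle membrane proteins and transporters and -0.24 for granule cargo. For vesicle recycling it was 0.087, and for REST and its partners 0.017.

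**Figure D1:**
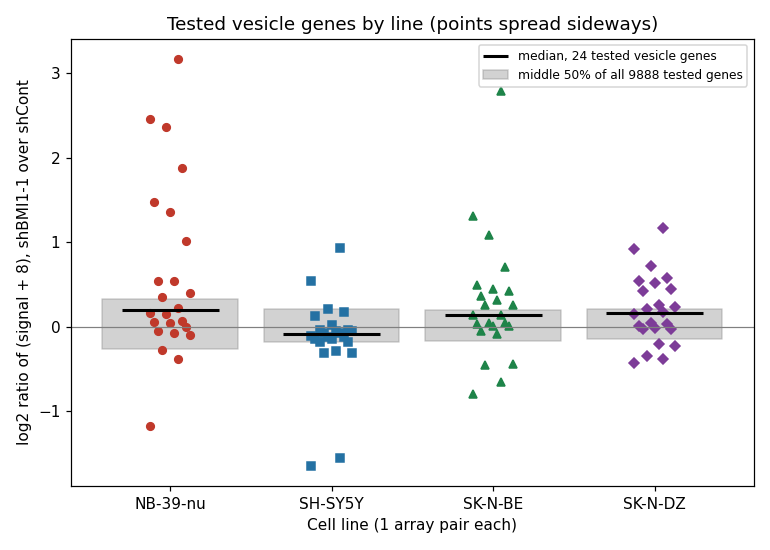
Within-line log2 ratio of (signal + 8), shBMI1-1 over shCont, of the 24 tested vesicle genes in each of the 4 lines; each point is 1 gene, black bars are medians over these genes and grey boxes span the middle 50% of all 9888 tested genes. The median lies at 0.20 in NB-39-nu, where 7 genes lie above a ratio of 1 (4 with the table median as pseudocount), and at -0.090 in SH-SY5Y.

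Each set of 4 values below follows the order NB-39-nu, SK-N-DZ, SK-N-BE and SH-SY5Y. None of the 3 tested SNAREs passed the test. SNAP25, the SNARE of the plasma membrane that bridges syntaxin and synaptobrevin, read 465, 102, 6511 and 3606 in control arrays and 519, 239.9, 6716 and 3432 after knockdown. Its levels separated the lines, high in SH-SY5Y and SK-N-BE and low in SK-N-DZ, and the groups overlapped. On average it differed by 0.32 ± 0.57 on the log2 scale (SD, n = 4 lines; limma adjusted p = 0.642), carried by 1.17 in SK-N-DZ, where the other probe sets gave -0.099 and -0.25. Without SK-N-DZ the mean was 0.044. STX1A, syntaxin 1A, read 243, 127, 329.6 and 436 in controls and 256, 131, 332 and 494 after knockdown, a change of 0.074 ± 0.073. VAMP1, the vesicle SNARE synaptobrevin 1, was at -0.0077, -0.013, 0.0048 and 0.025 within the lines by its brightest probe set. Its other, dim probe sets averaged 0.81 and 0.56, and the mean of all of them gave 0.46. VAMP2, its close relative, was near the table median and under the filter, between 49.5 and 158 on the 8 arrays, with ratios of 0.36, 0.40, -0.69 and 0.44. Its probe sets disagreed, as 1 nearly as bright gave -0.022, -0.63, -0.23 and 0.035, and the remaining one -0.44, -1.04, 0.40 and 0.63.

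The machinery that recycles SNARE complexes held 1 of the 5 genes with a low unadjusted p. NAPB, beta-SNAP, the brain form of the adaptor that recruits NSF, read 156, 117, 1219 and 1200.1 in controls and 323, 228, 1986 and 1163 after knockdown. It was far brighter in SH-SY5Y and SK-N-BE than in the other lines, and higher after knockdown in every line but SH-SY5Y. The mean was 0.65 ± 0.48 (SD over n = 4 lines, with a standard error of 0.20; limma adjusted p = 0.425). Its other probe set was dim. NSF, the ATPase itself, was bright everywhere, from 1802 to 3739 in controls, and was at -0.072 ± 0.15. NAPA, the ubiquitous alpha-SNAP, lay under the filter with within-line ratios of -0.65, -0.098, -0.57 and 0.075. Its other probe set gave 1.46, 0.047, -0.096 and 0.71, and with the mean of both NAPA went from -0.31 to 0.11.

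All 3 tested synaptotagmins were higher after knockdown in NB-39-nu, and none of their means passed the test. SYT1, the fast sensor of transmitter release, read 3517, 3235, 4450.3 and 11244 in controls and 5126, 4809, 5976 and 10161 after knockdown. Control and knockdown ranges overlapped because SH-SY5Y lay above the others on both arrays and was slightly lower after knockdown. The mean was 0.35 ± 0.34 (SD, n = 4 lines; limma adjusted p = 0.499). The second SYT1 probe set had ratios of 0.72, -0.95, 1.16 and -0.47, so the direction in SK-N-DZ differed between the probe sets. SYT11, a synaptotagmin that does not bind calcium, read 654, 2409.6, 1769.8 and 3454 and then 1681, 2362, 2495 and 2797. It was lowest in NB-39-nu and moved there most, by 1.35, with 0.88 for the second probe set, while the mean was 0.38 ± 0.73 (limma adjusted p = 0.643).

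SYT4, a synaptotagmin of dense-core vesicles, spanned the widest range of the tested genes. Its controls read 4.90, 98.3, 1105 and 12795 and its knockdown arrays 62.8, 137, 814 and 12421. SH-SY5Y was therefore bright on both arrays and NB-39-nu dim on both, so the log2 ratio of 2.46 in NB-39-nu joins values under the table median. Without NB-39-nu the mean moved from 0.61 to -0.012. SYT5, SYT7, DOC2B and RPH3A, further calcium sensors or calcium-binding effectors, lay under the filter. Among these RPH3A, rabphilin, a RAB3 effector, was brightest in SH-SY5Y, at 291 and 521, and read between 21.0 and 116 elsewhere.

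CPLX1, complexin 1, which clamps and then promotes SNARE fusion, read 15.1, 502, 240.5 and 427 in controls and 56.2, 830.4, 520.0 and 407 after knockdown. It was higher in every line but SH-SY5Y, by 1.09 in SK-N-BE but 0.72 for SK-N-DZ. NB-39-nu stayed dim on both arrays, so its ratio of 1.47, the largest, joins values under the table median. The mean was 0.80 ± 0.66 (SD over n = 4 lines, with a standard error of 0.27; limma adjusted p = 0.489). With the table median as pseudocount the mean was 0.51. CPLX1 has 1 probe set, so no second reading was at hand. CPLX2 lay under the filter and was dim in NB-39-nu, at 7.41 and 8.29.

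The priming factors showed no shared direction. UNC13B, a MUNC13 protein that opens syntaxin, was even across lines, from 2037 to 3039 in controls, and was at 0.060 ± 0.15. Its neuronal relative UNC13A lay under the filter, and its probe sets gave opposite ratios in NB-39-nu, -1.85 and 2.55, both from dim signals. CADPS, the priming factor of dense-core vesicles, read 518, 100.1, 1264 and 42.6 in controls and 540.3, 77.2, 1576 and 9.30 after knockdown. It marked NB-39-nu and SK-N-BE and was dim in SH-SY5Y on both arrays, where its log2 ratio of -1.55 joins 2 dim values. Without SH-SY5Y the mean moved from -0.38 to 0.012. CADPS2 showed another order, at 253, 289, 34.2 and 5.60 in controls, brightest in SK-N-DZ and NB-39-nu, and lay under the filter.

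**Figure D2:**
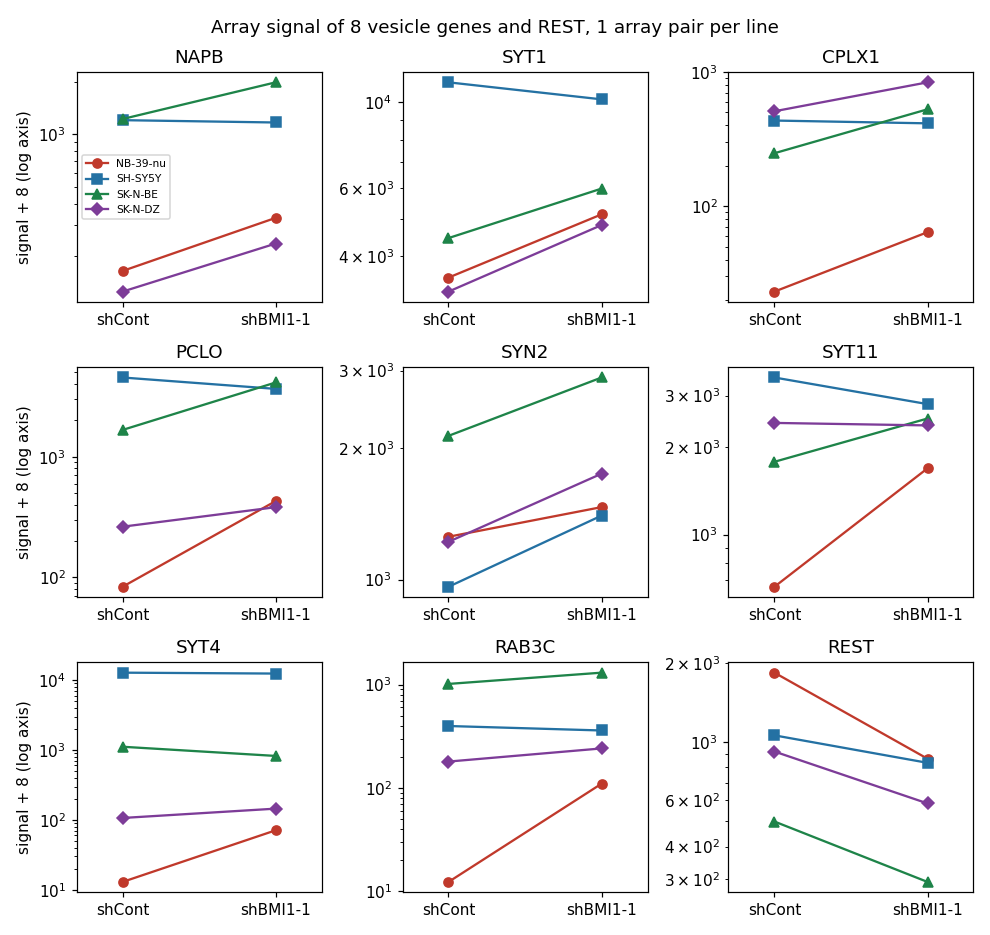
Array signal plus 8, on log axes, of NAPB, SYT1, CPLX1, PCLO, SYN2, SYT11, SYT4, RAB3C and the repressor gene REST in the shCont and shBMI1-1 array of each line; each line joins the 2 arrays of a cell line. PCLO goes from 75.5 to 421 in NB-39-nu and from 4535 to 3647 in SH-SY5Y, and REST is lower after knockdown in all 4 lines.

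The RAB GTPases, which tether vesicles to the release site, differed in direction from line to line. RAB3C read 4.27, 172, 1007 and 389 in controls and 102, 233, 1296 and 351 after knockdown. In NB-39-nu it went from a dim value to one above the table median, a log2 ratio of 3.16, and its other probe sets gave 2.93, 2.05 and 0.76 there. The mean was 0.95 ± 1.50 (SD, n = 4 lines; limma adjusted p = 0.585), and 0.21 without NB-39-nu. RAB3B read 226, 254, 83.6 and 536 and then 847, 262, 45.0 and 167. It was higher in NB-39-nu with all 5 probe sets, by 0.66 to 3.13, and lower in SH-SY5Y with 4 of 5. Its mean of -0.13 ± 1.50 hides these opposite moves and became 0.40 with the mean of all probe sets.

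RAB3A, the main RAB3 of synapses, read 345, 279, 40.8 and 269 in controls and 389, 212, 329 and 263 after knockdown. Apart from the dim control of SK-N-BE, its arrays read between 212 and 389, so the mean of 0.63 ± 1.45 rests on that array and was -0.083 without SK-N-BE. It has 1 probe set. RAB27B, which docks dense-core and secretory granules, read 742, 136, 5939.5 and 431 and then 325, 155, 6567 and 828. SK-N-BE stood far above the other lines on both arrays, NB-39-nu changed by -1.17 and SH-SY5Y by 0.93, which left a mean of 0.020 ± 0.87.

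At the active zone, PCLO had the largest mean of the tested genes with the brightest probe sets and a pseudocount of 8. With no pseudocount RAB3C was higher (1.31 against 1.01), and with the mean of all probe sets RAB3C (0.81) and CPLX1 (0.80) were above PCLO (0.62). PCLO encodes piccolo, a giant scaffold that organises release sites, and read 75.5, 255, 1661 and 4535 in controls and 421, 374, 4122 and 3647 after knockdown. NB-39-nu started lowest and SH-SY5Y highest, and the ratios were 2.36, 0.54, 1.31 and -0.31. The mean was 0.97 ± 1.14 (SD over n = 4 lines, with a standard error of 0.36; limma adjusted p = 0.499). The second PCLO probe set gave 0.48, -0.44, 1.10 and -0.44, with the same direction as the first everywhere but in SK-N-DZ. ERC1, a widely expressed scaffold, was at 0.22 ± 0.27, and a second ERC1 probe set above the filter averaged -0.056. RIMS2, a RAB3-interacting scaffold, separated the lines strongly at 81.1, 401, 1656 and 1087 in controls but had ratios of only -0.045, 0.15, 0.051 and -0.12. BSN, bassoon, the partner of piccolo, lay under the filter and was dim in NB-39-nu, at 5.92 and 10.8. RIMS1 was bright in SH-SY5Y, at 493 and 411, and dim in NB-39-nu and SK-N-BE, and ERC2 was below the table median on all but 1 array.

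Among proteins of the vesicle membrane and its tethers, the synapsins bind vesicles to actin and to each other. SYN2 had the lowest unadjusted p of the list. It read 1245, 1212, 2120.5 and 955 in controls and 1456, 1737, 2884 and 1392 after knockdown, higher in 4 of 4 lines, with overlapping groups. The mean was 0.43 ± 0.14 (SD over n = 4 lines, with a standard error of 0.11; limma adjusted p = 0.369). Its probe sets disagreed, however. Of the other 3 above the filter, the second brightest gave -0.63, 0.17, -0.32 and 0.61, the third -0.91, 0.037, -0.55 and -0.52 and the fourth 0.024, 0.63, 0.15 and -0.27, and with the mean of all 5 probe sets SYN2 was at 0.027. The direction of SYN2 as a gene is therefore uncertain. SYN1, at 48.9, 111, 175 and 155 in controls and 80.9, 152, 267 and 69.5 after knockdown, lay under the filter, and SYN3 was below the table median on all 8 arrays.

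SV2A, a vesicle glycoprotein that binds the antiepileptic drug levetiracetam, read 1006, 656, 957 and 1018 in controls, lowest in SK-N-DZ, and was at -0.21 ± 0.32 after knockdown. SV2C, its relative, was a mark of SK-N-BE by its brightest probe set, at 1152 and 916, against at most 92.5 in the other lines, and lay under the filter. A probe set nearly as bright did not set SK-N-BE apart, at 138, 93.7, 92.9 and 88.2 in controls. A dimmer one did, at 29.2, 26.0, 210.5 and 28.7. SV2B, the third of the family, lay under the filter too, between 28.9 and 129 on the 8 arrays. SYP, synaptophysin, a routine stain for neuroendocrine tumours, was near the table median, between 56.5 and 135. SYPL1, the synaptophysin-like protein of many tissues, read 3622, 2603, 2392 and 2484 in controls and 2995, 2629, 1742 and 2195 after knockdown. It was lower in 3 of 4 lines, at -0.22 ± 0.20 (limma adjusted p = 0.579), and its other probe set gave -0.53, 0.035, -0.38 and -0.36. The synaptogyrins SYNGR1 and SYNGR3 and the secretory carrier SCAMP5 were at -0.14 ± 0.42, 0.098 ± 0.28 and 0.064 ± 0.10. A dimmer SYNGR1 probe set had the opposite mean, 0.28.

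**Figure D3:**
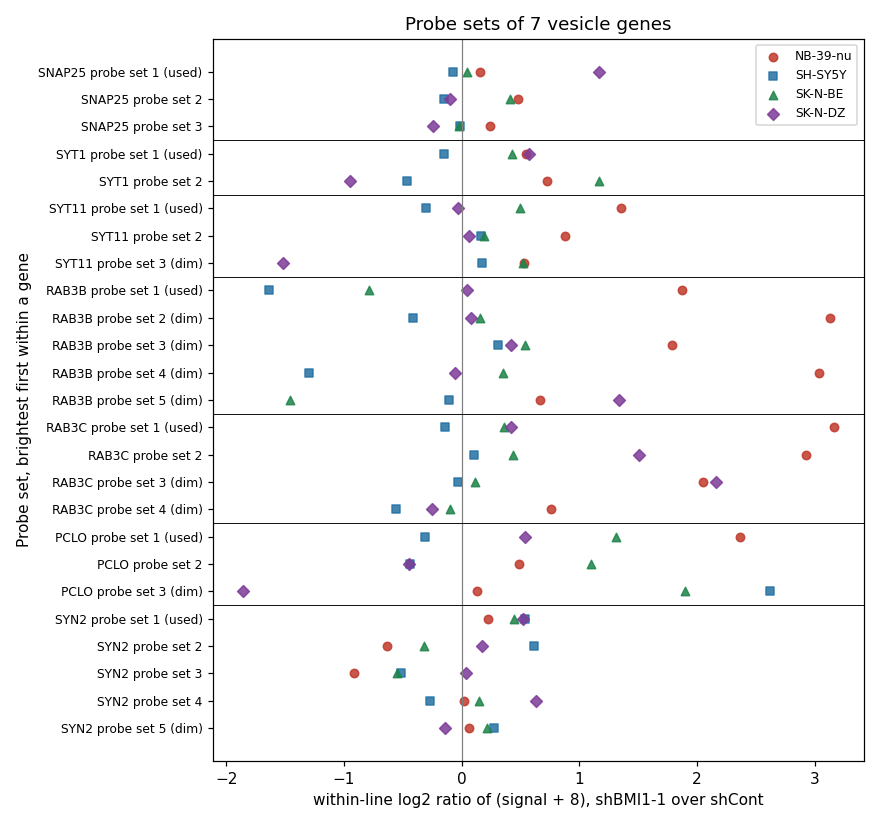
Within-line log2 ratio of (signal + 8), shBMI1-1 over shCont, for every probe set of 7 vesicle genes; each point is 1 line, probe sets are ordered from brightest to dimmest within a gene, and "dim" marks those under the filter. The RAB3B and RAB3C probe sets are all above 0 in NB-39-nu, and those of SYN2 lie on both sides of 0.

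The 11 tested genes with at least 2 probe sets above the filter had all such probe sets on 1 side of 0 in the mean in 7 cases, and on both sides in 4 (SNAP25, ERC1, SYN2 and SYNGR1). For 14 of the 41 measured genes a single probe set was available.

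The lines differed widely in the level of these genes. Between the 4 control arrays the tested genes had a median range of 2.71 on the log2 scale, against 1.23 over all tested genes, and between the 4 knockdown arrays 2.29 against 1.17. The widest control ranges were those of SYT4 (9.95), RAB3C (6.37), SNAP25 (5.88), PCLO (5.77) and RAB27B (5.36), and the narrowest those of UNC13B (0.58), SYPL1 (0.60) and SV2A (0.63). Of the 24, SK-N-BE controls were highest for 10, SH-SY5Y for 8, NB-39-nu for 5 and SK-N-DZ for 1, where each line was highest for between 22.9% and 29.4% of all tested genes. NB-39-nu was lowest for 8 (33.3%, against 24.4% of all tested genes), SK-N-DZ for 7 (29.2%, against 25.3%), SK-N-BE for 5 (20.8%, against 26.3%) and SH-SY5Y for 4 (16.7%, against 24.0%). The second array of each line gave much the same order, since the lowest line in controls was also the lowest after knockdown for 22 of the 24 (91.7%, against 71.1% of all tested genes) and the highest line was the same for 19 (79.2%, against 71.6%). Line levels rest on 1 array per line and condition and carry no test.

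**Figure D4:**
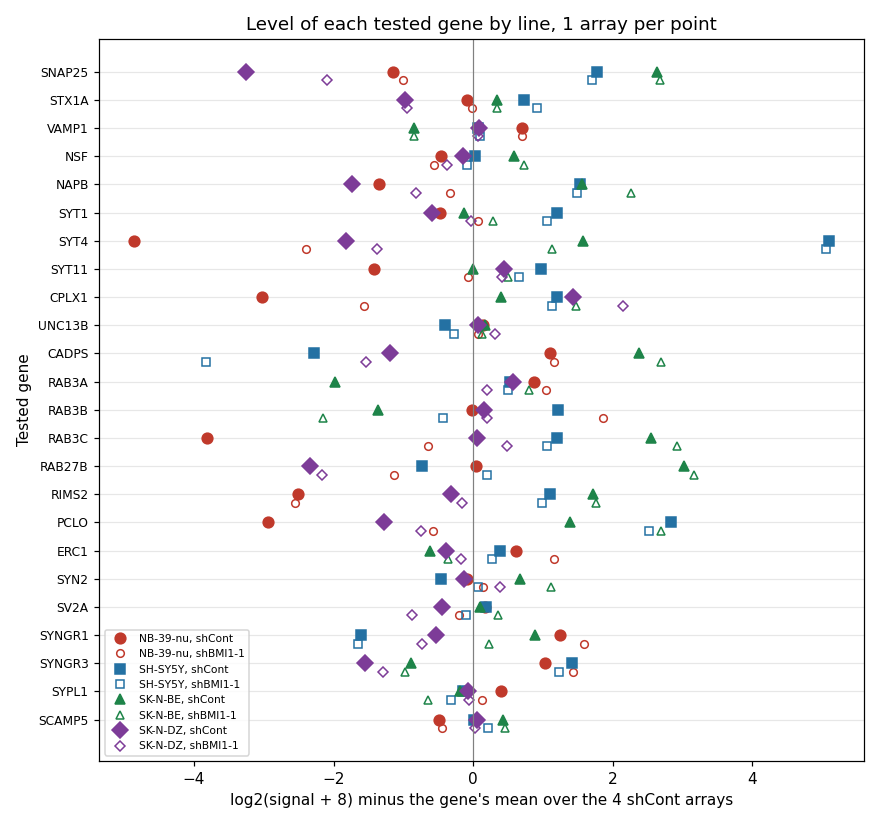
log2(signal + 8) of the 24 tested vesicle genes by line, each minus the gene's mean over the 4 shCont arrays; filled marks are shCont and open marks shBMI1-1, 1 array per mark. SYT4, RAB3C, SNAP25 and PCLO spread over 5.77 or more log2 units between control arrays, and UNC13B over 0.58.

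**Figure D5:**
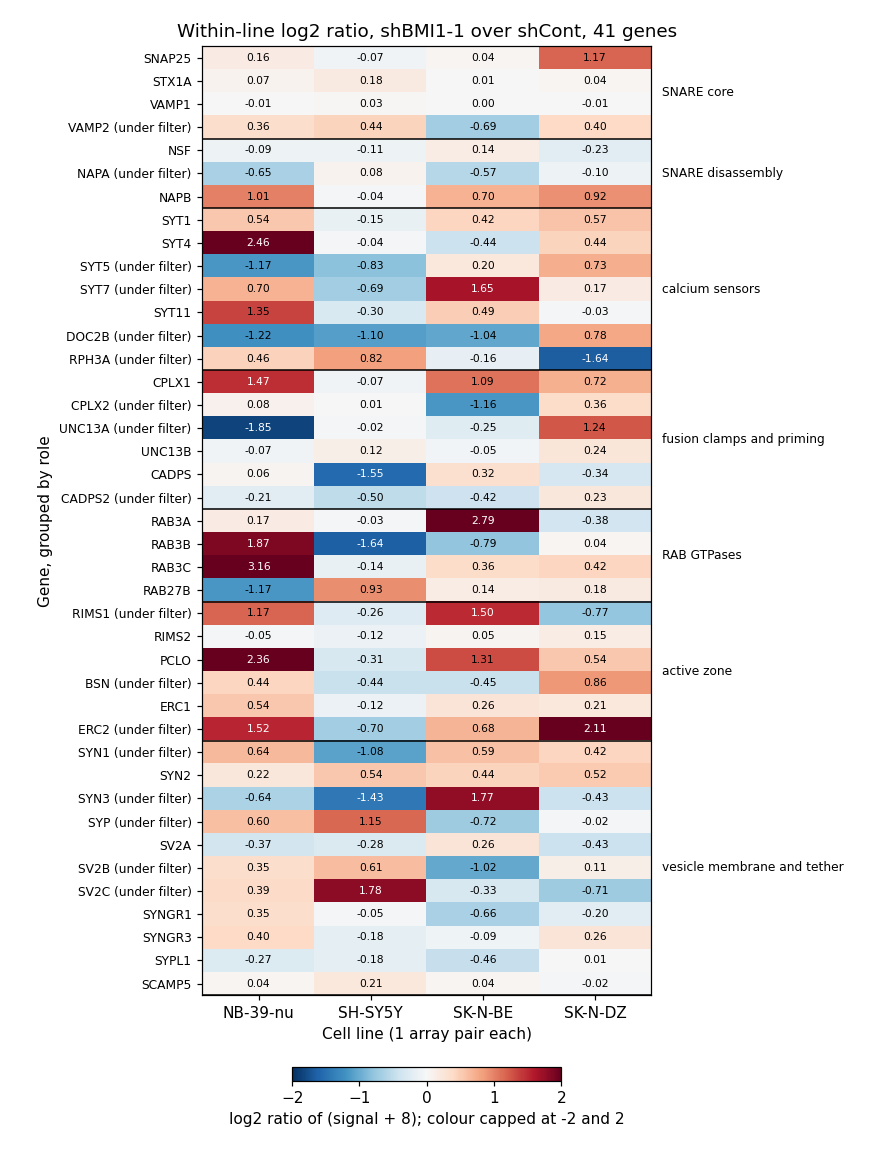
Within-line log2 ratio of (signal + 8), shBMI1-1 over shCont, for the 41 measured vesicle genes in 4 lines, grouped by role; red is higher and blue lower after knockdown, with the colour capped at 2 either way and the value printed in each cell. NB-39-nu holds the highest value, 3.16 for RAB3C, and genes marked as under the filter show large ratios of both signs from dim signals.

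Other genes of the same pathway were followed through further lists, also chosen with earlier results known, and none of their members passed over all genes. Of 15 tested SNARE partners and SM proteins, 1 was higher at an unadjusted p under 0.05 (against 4.98% of all tested genes) and 0 lower (against 4.36%), with a median log2 fold change of 0.065. The one was VAMP4, a SNARE of the Golgi and endosomes, at 0.34 ± 0.23 (limma adjusted p = 0.511), though the remaining probe sets averaged -0.21 and -0.047. Lowest there was STXBP3, an SM protein, at -0.27 ± 0.23. Of 13 tested RAB3, RAB27 and active zone partners, 0 were higher and 2 lower at that level, CASK and LIN7C, which belong to 1 scaffold complex that links release sites to adhesion proteins. CASK read 3669, 1181, 869 and 1347 in controls and 1763, 856, 710.3 and 990.0 after knockdown, lower in 4 of 4 lines, at -0.56 ± 0.34 (limma adjusted p = 0.369), and the further bright CASK probe sets averaged -0.38 and -0.54. LIN7C was at -0.27 ± 0.13 (limma adjusted p = 0.494). MADD, an activator of RAB3, was highest at 0.32 ± 0.23.

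The plainer trafficking lists had median log2 fold changes close to that of all tested genes, 0.032, though they were not flat in every respect. The 8 exocyst subunits, which tether vesicles in all cells, had a median of 0.021, with 0 at an unadjusted p under 0.05. They ran from EXOC3 at -0.32 to EXOC6 at 0.29. Their line medians were -0.15 in SH-SY5Y, 0.077 in SK-N-DZ, 0.13 in SK-N-BE and -0.030 in NB-39-nu. The 17 tested genes of vesicle recycling had a median of 0.044, from ITSN2 at -0.15 to SH3GL3 at 0.39, again with 0. Of these 17, 14 were higher in the mean, against 56.5% of all tested genes. The 5 tested further synaptotagmins and tethers ran from SYT14 at -0.19 to SYT16 at 0.44, with 0. Of 6 tested vesicle membrane proteins and transporters, SCAMP1 was lower in 4 of 4 lines at -0.30 ± 0.16 (limma adjusted p = 0.455), although 1 of its brighter probe sets averaged 0.15, and SYNGR2 was highest at 0.22 ± 0.14. A further list held the cargo of dense-core granules. Its 7 tested genes were all higher in the mean, against 56.5% of all tested genes, with a median of 0.63, and line medians of -0.24 in SH-SY5Y, 0.041 for SK-N-DZ, 0.26 in SK-N-BE and 1.35 in NB-39-nu. The 2 higher at an unadjusted p under 0.05, against 4.98% of all tested genes, were the granins CHGB at 0.63 ± 0.52 (limma adjusted p = 0.404) and SCG3 at 0.88 ± 1.22 (limma adjusted p = 0.527). The SCG3 ratio of 2.69 in NB-39-nu joins values under the table median, 4.37 and 72.1. Its ratios were 0.48 in SK-N-DZ, 0.31 in SK-N-BE and 0.045 in SH-SY5Y. SCG2 was highest at 1.19 ± 2.23, with 4.42 in NB-39-nu, and CHGA lowest at 0.091 ± 0.95.

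REST, a zinc finger repressor that silences many neuronal genes through the RE1 element, and its partners formed the last list. REST read 1828, 912, 489.9 and 1052 in controls and 855, 575, 285 and 825 after knockdown. It was lower in 4 of 4 lines, most in NB-39-nu, with ratios of -1.09, -0.66, -0.76 and -0.35, while the groups overlapped. The mean was -0.71 ± 0.31 (SD over n = 4 lines, with a standard error of 0.15; limma adjusted p = 0.306). The remaining REST probe sets lay under the filter and averaged -0.42 and 0.57. Of the 9 tested genes of that list REST was the 1 lower at an unadjusted p under 0.05 (against 4.36% of all tested genes), and the corepressor SIN3A the 1 higher, at 0.40 ± 0.15 (limma adjusted p = 0.46), while a second SIN3A probe set above the filter averaged 0.084. Any link between the REST values and those of the vesicle genes was not tested.

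The RE1 element was looked for in the promoters of the vesicle genes, taken from RefSeq on GRCh38.p14 as 250 bases before and 50 after each start site. The table held 49 promoters of 34 of the 42 genes. A core of RE1 was taken as CAGCACC and GGACAG with any 2 bases between them on either strand. It was present in promoters of 2 genes, SYN1 and RPH3A (3 of 49 promoters), and in 18 of all 35116 promoters (0.0513%). Its left arm with 1 more base, TCAGCACC, which overlaps the core, was present in those of 7 genes (8 of 49 promoters, against 1.67% of all). These stretches are shown because SYN1 and RPH3A hold the whole core, SYT4 is a tested gene with its left arm, and SV2C and SV2B are a pair of relatives with it, with the matching letters in capitals and each printed on the strand that reads the motif forward.
SYN1: ccagcttCAGCACCGCGGACAGtgccttc
RPH3A: tggcggtCAGCACCACGGACAGcgctaag
SYT4: cagggctgaaaTCAGCACCtgcccccctcc
SV2C: gcagcagcgccTCAGCACCgcgacttgccg
SV2B: actgccaaggcTCAGCACCgaaagactctt
They lie at chrX:47620067-47620095 on the minus strand, chr12:112791545-112791573 on the minus strand, chr18:43277554-43277583 on the plus strand, chr5:76083151-76083180 on the plus strand and chr15:91099537-91099566 on the minus strand. The match lies upstream of a start site by 216 bases in SYN1, 74 in SYT4, 213 in SV2C and 32 in SV2B. In RPH3A it lies 181 bases upstream of 1 start site and 14 downstream of another. UNC13A holds the left arm just past its start site. The cAMP response element TGACGTCA was found in 1 of the 49 promoters of these genes, that of SYN1, against 1.85% of all promoters, and is not read as an excess. A match in letters is not a measured binding site, and the genes with the whole core, SYN1 and RPH3A, both lay under the filter.

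Markers of neuroblastoma cell state also differed between the arrays. The 8 tested sympathoadrenal markers had median log2 ratios of 0.25 in SH-SY5Y and 0.91 in NB-39-nu, against -0.15 in SK-N-DZ and -0.036 in SK-N-BE. Over the 9 measured, the summed signal ran from 43643 to 111263 in controls and from 36049 to 134477 after knockdown, and 3 of the 8, ISL1, DDC and CHGB, were higher at an unadjusted p under 0.05, against 4.98% of all tested genes. CHGB is also on the granule list. For the 10 markers of mesenchymal-type neuroblastoma cells the sums ran from 17093 to 51674 and from 20513 to 71845. VIM alone read 38552 in the SH-SY5Y control and 58620 in NB-39-nu after knockdown, but 112 and 14.0 in SK-N-DZ. Only 3 of the 10 exceeded the table median on all arrays. Of the 7 tested, 1 was higher at that level, FN1. The 7 had median log2 ratios of 0.0092 in SH-SY5Y, 0.47 in NB-39-nu, -0.11 for SK-N-BE and 0.19 for SK-N-DZ. The part of cell state in the vesicle gene values was not tested.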

How the data were processed

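RNA from 8 samples was hybridised to Affymetrix HG-U133 Plus 2.0 arrays, 1 array per sample. The deposited values are linear intensities, 1 for each probe set on each array, with GCOS and MAS5 named in the submitters' processing notes and no version given. The 2% trimmed mean came to 500 on all arrays, which had thus been scaled to it, and no present or absent calls were used. The median signal still differed within lines, most in NB-39-nu, at 69.9 in the control and 79.5 after knockdown. It was 75.2 and 78.5 in SH-SY5Y, 70.1 and 70.3 in SK-N-BE, and 79.8 and 76.5 in SK-N-DZ. Of 54675 probe sets, 41097 had 1 annotated gene, 1801 several and 11777 none, and 41043 took a current symbol from the RefSeq gene table of GRCh38.p14. The BMI1 probe set, annotated to 2 genes, was kept for BMI1.

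Signals were taken as log2(signal + 8). The brightest probe set by mean stood for each gene, and genes with a mean above the median over genes were tested with limma 3.58.1 in R 4.3.3 (lmFit, eBayes with a trend), with cell line as a block and Benjamini-Hochberg adjustment over 9888 genes at 0.05. The pairing comes from the labels, which name each line; the 2 arrays of a line correlated at r of at least 0.934 over probe sets, against at most 0.886 between lines. The fit was tested on simulated data. The sequence of 1 promoter is not reported here. Genes and lists were chosen with earlier results of these data known. Named were all 42 genes, BMI1, and the highest and lowest tested gene of each further list; other genes were named after their values were seen. Alternatives changed the pseudocount, filter, scaling, probe set rule, block and trend, or left out 1 line.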

Additional observations from a re-analysis of the deposited data

Results flagged for a closer look

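Of 72 groups of 4 values (24 tested genes; control levels, knockdown levels and within-line ratios), 2 held a value far from the others, and chance alone marks about 1 in 20. The control level of RAB3A in SK-N-BE, as log2(signal + 8), was 5.61, with the other lines between 8.12 and 8.47. The control level of SV2A in SK-N-DZ was 9.37, with the other lines between 9.91 and 10.0. No cause was tested for either.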

How the results depend on the processing

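No vesicle gene passed over all genes under any of the 12 alternatives. Over all genes, 2 passed with a pseudocount of the table median, 2 with no filter, 2 with the stricter filter, 2 with quantile normalization, and 0, 0 and 0 in turn with all probe sets averaged, no line block and no trend; leaving out 1 line gave 0 to 2. Vesicle genes at an unadjusted p under 0.05 numbered 2 with the stricter filter (SYN2 and SYT1, both higher), 2 with the mean of all probe sets (CPLX1 higher, SYPL1 lower) and 0 without the replicate block, and 1 to 7 with 1 line left out. Their median fold change was 0.32 with the stricter filter, against 0.018 over all tested genes. With 1 line left out it was 0.065 to 0.26, against 0.029 to 0.032 over all tested genes. Genes higher in every line numbered 1, 1 and 1 with the stricter filter, quantile normalization and the mean of all probe sets. Over any 3 lines 2 to 9 were higher, the most without SH-SY5Y, and 0 to 2 lower. Agreement over 3 lines is easier to reach than over all lines, and its share over all tested genes is not given. With the table median as pseudocount, 4 were 2-fold higher in NB-39-nu, 0 in SK-N-DZ, and 1 lower in SH-SY5Y. With no filter, which adds the 17 genes under it, the NB-39-nu median was 0.35, 4 were 2-fold lower there, 2 higher and 5 lower in SH-SY5Y, 6 and 3 in SK-N-BE, and 3 and 1 in SK-N-DZ. Of all 9888 genes under the filter, 2187 were 2-fold higher and 1243 lower in NB-39-nu, where their median was 0.20. The same counts were 1603 and 1710 in SH-SY5Y, 1341 and 1368 in SK-N-BE, and 1500 and 1751 in SK-N-DZ. Median ratios of the genes under the filter were 0.0042, -0.013 and -0.052 in these lines, so dim genes shifted upward in NB-39-nu alone. Such ratios are thus common among dim genes and are not read as particular to the vesicle genes. The stricter filter, with fewer genes, left 1 higher and 0 lower in NB-39-nu, 0 lower in SH-SY5Y and 0 higher in SK-N-BE. The mean of all probe sets left 0 lower in SH-SY5Y and an SK-N-BE median of 0.0093. Of single genes, 13 of 24 kept their direction throughout, though not every alternative could turn it. The filter, block and trend leave a gene's fold change as it is. So does the mean of all probe sets for a gene with a single one. The sign turned under quantile normalization for VAMP1 (-0.018) and RIMS2 (-0.037), and with the mean of all probe sets for RAB3B (0.40), RAB27B (-0.27), ERC1 (-0.15) and SYNGR1 (0.12). Without 1 line the sign also turned for SYT4 (-0.012 to 0.95), SYNGR3 (-0.0028 to 0.19), VAMP1 (-0.0052 to 0.0075), CADPS (-0.61 to 0.012), RAB3B (-0.80 to 0.38), RAB27B (-0.28 to 0.42), RAB3A (-0.083 to 0.97), RIMS2 (-0.037 to 0.051), SYNGR1 (-0.30 to 0.033) and UNC13B (-2.2e-05 to 0.10). The causes were not tested. No detection calls were used, and the filter is a median over genes, not a background level.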
